A study of Mus musculus and Homo sapiens with 20 samples.

Results

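Riboflavin deficiency was examined in mouse hepatocytes that carried a floxed Ahr gene and had received Ad_Cont, by comparing the open chromatin of 3 libraries named B2_minus_Ad_Cont with that of 3 named Cont_Ad_Cont. The members were chosen by their titles, 6 of the 20 libraries in the series, and both groups shared the floxed allele, the Ad_Cont arm and the label of 4 weeks. The study also held 6 hepatocyte libraries with Ad_Cre under the same 2 riboflavin conditions and 8 libraries of the human HepG2 line, which is not used here. The labels do not spell out Ad_Cont, a name commonly given to a control adenovirus, and they do not say whether riboflavin was withheld from the animals or from the culture. They speak of cultured cells and do not say whether the 3 libraries of a group came from separate animals or cultures, so each p-value speaks of the scatter among these libraries, and that scatter may be technical. The floxed gene encodes the aryl hydrocarbon receptor (AhR), a transcription factor that binds planar aromatic ligands.

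Riboflavin is the precursor of the flavin cofactors FMN and FAD, which cells build after taking the vitamin up through dedicated transporters. Flavoenzymes use these cofactors to pass electrons in fatty acid oxidation, the respiratory chain, choline and one-carbon metabolism and drug oxidation, and the liver depends on all of these. ATAC-seq marks open chromatin, because the Tn5 transposase inserts sequencing adapters where DNA is not packed, so that tags pile up at promoters and enhancers. In bulk samples such as these, fewer cells with an open site and a less open site in each cell cannot be told apart.

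Peaks of the 12 hepatocyte libraries that overlapped by at least 1 bp were merged into 642948 regions, of which 101575 had a peak in every library and were tested. The value of a region in a library was its highest peak count there, divided by the size of that library relative to the mean library, and is called scaled tags. The control lists held 200698 to 265511 peaks and the B2_minus lists 206940 to 225584, and an exact two-sided permutation test of these numbers gave p = 0.7, where 3 against 3 allows none below 0.1. The lowest listed count was 6 to 7 tags, so a weaker site was missing from a list rather than listed at 0. The first principal component of the 6 libraries (29.7% of the variance) put the controls at -46.8 to -33.5 and the B2_minus libraries at 37.1 to 45.2, and the second (18.4%) put B2_minus replicate 2 at 59.9 and B2_minus replicate 3 at -49.7. Library numbers in the labels ran in the order of the groups, so a preparation batch and the riboflavin state cannot be told apart. All 19 genes of a hepatocyte identity list had a tested region within 10 kb, with a median of 64.0 scaled tags at the strongest region of each gene in the controls. No such region was found for 8 of 12 Kupffer cell markers, among them Clec4f, Vsig4 and Timd4, for 7 of 9 lymphocyte markers and for 4 of 4 neutrophil markers. It was lacking for 1 of 15 endothelial markers, 1 of 9 bile duct markers and 3 of 14 stellate cell markers, with medians of 41.3, 41.3 and 23.8 scaled tags, so a region near a marker gene did not single out hepatocytes.

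Most open sites kept their signal within the spread of the libraries, and the changes called were spread over 360 genes with a higher region and 439 with a lower one. The quasi-likelihood test of edgeR with Benjamini-Hochberg adjustment called 1058 of 101575 regions (1.04%), 430 higher (0.423%) and 628 lower (0.618%). With library size from all listed tags instead, the split turned to 687 higher and 325 lower, and the median log2 fold change of all regions moved from 0.01 to 0.06, so directions are relative to the typical region. The regions called higher had a median log2 fold change of 0.68 and the lower ones -0.87, and 34 and 149 of them changed more than 2-fold. At 1030 of the 1058 called regions the groups did not overlap, against 17.3% of all tested regions. A lack of overlap at a called region therefore adds little to the call itself. Leaving out 1 library at a time left 264 calls (without B2_minus replicate 1) to 562 (without B2_minus replicate 2). Replicates varied less than Poisson counting noise (variance over mean 0.44 to 0.72), and the stricter form of the test, with the variance held at Poisson or above, called 17 regions (0.0167%). DESeq2 called 0 regions, with 2411 at an unadjusted p under 0.05, against 13398 for edgeR.

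The 17 regions called by both forms of edgeR were also called in each of the 6 fits that left out 1 Ad_Cont library. Those fits used the form without the bound, and the 17 had passed the stricter form on the same libraries, so this adds little. The form with the bound was not run without a library. Log2 fold changes had the same sign in the Ad_Cre libraries at all 17, as at 63238 of all 101575 tested regions. With Ad_Cre 10 of the 17 were called. Those not called there were Dnase2b (0.37), Gprc5c (0.30), Bag3 (0.52), chr10:111672862-111673140 (0.30), Asb5 (-0.59), Magi1 (-0.49) and Smc3 (-0.12). The 17 were singled out after their values were seen, and 6 of them are named for that reason alone: Arhgap22, Asb5, Sema4d and 3 regions with no protein-coding gene within 50 kb. Gains were 7 and losses 10. Values per library below are in the order of replicates 1, 2 and 3.

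Among the gains, the largest lay inside Stab2, whose product clears hyaluronan and other waste from blood and is typical of sinusoidal endothelial cells. That region (chr10:86872164-86872567) held 18.8, 22.9 and 20.5 scaled tags in the controls and 46.6, 37.3 and 48.4 with B2_minus (log2 fold change 1.08, SE 0.17, edgeR adjusted p 2.72e-05). Every B2_minus library stood above every control, and with the Poisson bound the edgeR adjusted p was 0.0153. Inside Dnase2b, the gene of an acid endonuclease, the control libraries held 21.0, 35.8 and 23.8 and the B2_minus libraries 67.2, 55.4 and 46.3 (chr3:146591240-146591498; 1.06, SE 0.15, edgeR adjusted p 3.18e-06). There was no overlap, although control replicate 2 stood above the other controls. A region 11024 bp from Bag3, which encodes a co-chaperone that works with Hsp70 in selective autophagy, went from 22.1, 22.9 and 23.8 to 46.6, 44.8 and 46.3 (chr7:128558005-128558347; 1.00, SE 0.16, edgeR adjusted p 5.03e-05). The 3 libraries of each group were nearly equal there.

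Inside Thsd4, the gene of a matrix protein that binds fibrillin microfibrils, controls held 30.9, 30.9 and 35.6 scaled tags and B2_minus libraries 65.4, 55.4 and 57.9 (chr9:60117841-60118141; 0.88, SE 0.13, edgeR adjusted p 1.37e-05). Near Gprc5c, an orphan receptor gene, the values were 23.2, 14.9 and 16.2 in the controls and 37.6, 39.4 and 34.7 with B2_minus (chr11:114876184-114876462; 1.05, SE 0.19, edgeR adjusted p 0.000919). A region on chromosome 10 with its nearest protein-coding gene 164213 bp away (chr10:111672862-111673140) went from 24.3, 17.9 and 17.3 to 44.8, 43.7 and 34.7 (log2 fold change 1.06). In each of these 3 regions all B2_minus libraries stood above all controls. The remaining gain was the promoter of Gsta2, described with the promoters.

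The deepest loss among the 17 lay within Pvt1, a long non-coding RNA gene beside Myc, the gene of a growth-promoting transcription factor. The region (chr15:62118230-62119372) lies 127869 bp from Myc and held 37.6, 32.9 and 42.1 scaled tags in the controls against 9.86, 18.1 and 14.7 with B2_minus (log2 fold change -1.41, SE 0.21, edgeR adjusted p 8.06e-06). Every control stood well above every B2_minus library. Inside Aida, which encodes an axin-binding protein, the control values were 80.7, 91.6 and 89.6 and the B2_minus values 55.5, 53.3 and 58.9 (chr1:183299095-183299510; -0.64, SE 0.10, edgeR adjusted p 1.57e-05). It was the strongest of the 17 regions and had the smallest fold change among them. Inside Slc39a11, the gene of a zinc transporter, values of 38.7, 32.9 and 25.9 in the controls became 13.4, 14.9 and 15.8 (chr11:113265618-113266010; -1.14, SE 0.21, edgeR adjusted p 0.000975).

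Inside Magi1, which encodes a scaffold protein of tight junctions, controls held 33.1, 35.8 and 23.8 and B2_minus libraries 17.0, 11.7 and 11.6 (chr6:94100964-94101730; -1.18, SE 0.22, edgeR adjusted p 0.00147). Of the 58 regions tested at Magi1 1 other was called lower and 1 higher, with a median of 0.03 over all 58. Those calls were lost in 5 and 6 of the 6 fits without 1 library, with an edgeR adjusted p up to 0.377 without B2_minus replicate 1 and 0.201 without B2_minus replicate 2. The losses also took in a region inside Arhgap22, a GTPase-activating protein of Rac (45.6 ± 4.22 to 23.6 ± 6.63 scaled tags, mean ± SD, n = 3 per group; log2 fold change -0.96). They took in one inside Sema4d, a semaphorin that signals through plexins (43.9 ± 6.05 to 21.7 ± 7.78; -1.03), and one beside Asb5, an adaptor of a ubiquitin ligase (41.6 ± 5.21 to 20.7 ± 4.18; -1.01). The last 2 lay 229832 and 291897 bp from the nearest protein-coding gene, on chromosomes 13 (chr13:28718690-28719087, -1.04) and 2 (chr2:137408417-137408751, -0.97). At none of these 5 regions did the groups overlap.

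A region at the promoter of Smc3, a subunit of the cohesin ring that shapes chromatin loops, held 46.4, 38.8 and 46.4 scaled tags in the controls and 20.6, 23.4 and 17.9 with B2_minus (chr19:53600219-53601053; log2 fold change -1.08, SE 0.17, edgeR adjusted p 2.67e-05). A neighbouring region 66 bp away held 82.3 ± 5.72 and 78.2 ± 3.22 (-0.08, edgeR adjusted p 0.77). With Ad_Cre the same Smc3 region gave -0.12, and the interaction of riboflavin state and Ad arm had an unadjusted p of 2.32e-05 and an edgeR adjusted p of 0.578. The part of peak placement beside this stronger neighbour in the Smc3 value was not tested.

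**Figure D1:**
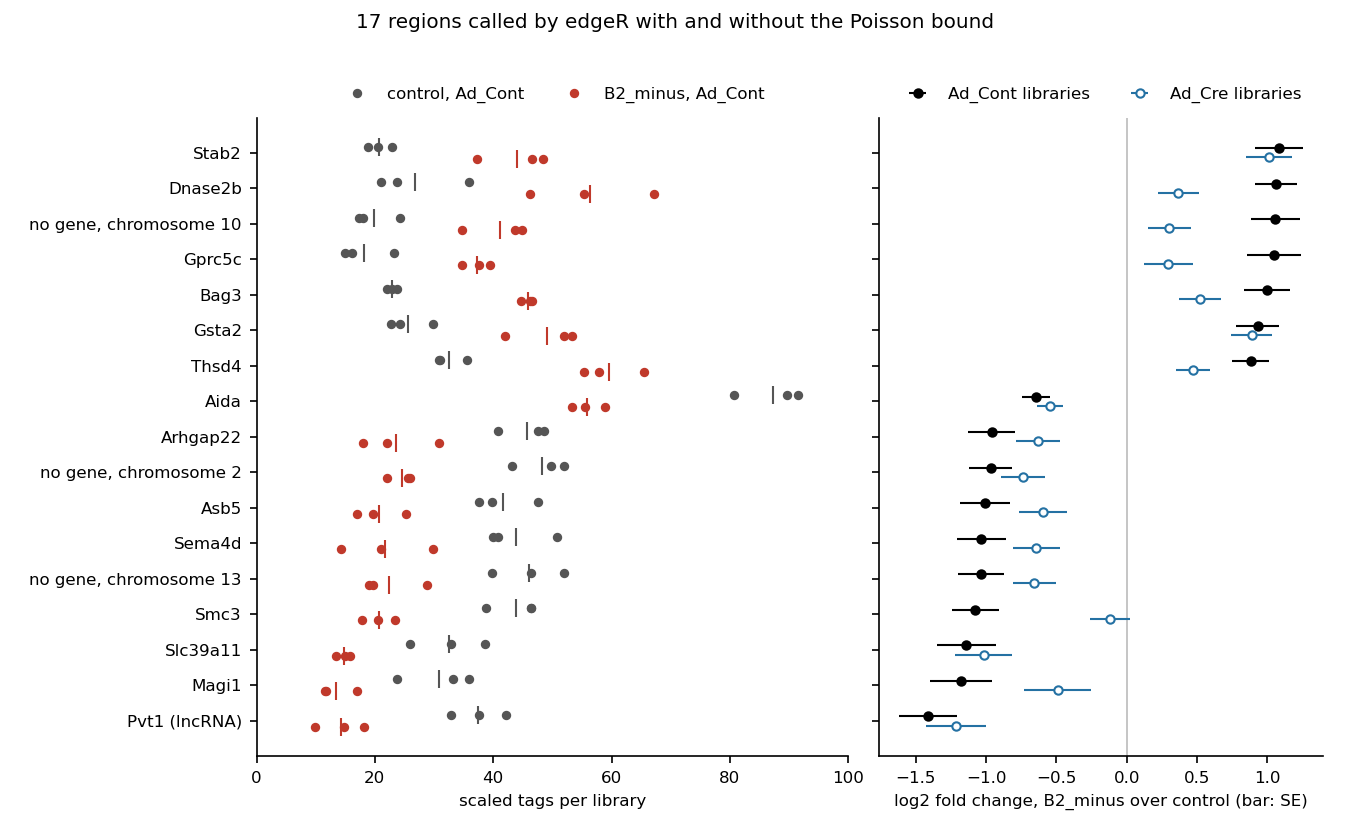
Left, scaled tags (horizontal axis, linear) of each of the 3 control and 3 B2_minus libraries with Ad_Cont at the 17 regions called by edgeR with and without the Poisson bound, with a vertical tick at each mean. Right, the log2 fold change of B2_minus over control with its SE, filled for Ad_Cont and open for Ad_Cre libraries. The groups do not overlap at any of the regions, from Stab2 (1.08) to the Pvt1 region (-1.41), and the Smc3 region stands near 0 with Ad_Cre (-0.12).

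Promoter changes were few. Regions overlapping the 300 bases around an annotated gene start made up 10.5% of tested regions but 4.65% of those called higher and 4.62% of those called lower, and 0.46% of them were called. Gsta2 encodes an alpha-class glutathione transferase, which joins glutathione to reactive compounds. Its promoter region (chr9:78347083-78347345) held 24.3, 29.9 and 22.7 scaled tags in the controls and 52.0, 53.3 and 42.1 with B2_minus (log2 fold change 0.93, SE 0.15, edgeR adjusted p 7.01e-05). All 3 B2_minus libraries stood well above all 3 controls, and the region was called in 18 of the 19 alternatives in which it was tested, the exception being DESeq2. Pir encodes pirin, an iron-binding nuclear protein and target of the oxidative stress regulator NRF2. At its promoter (chrX:164269382-164269705) the controls held 46.4, 31.9 and 41.0 and the B2_minus libraries 63.6, 50.1 and 63.1 (0.58, SE 0.13, edgeR adjusted p 0.00707).

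Dmgdh and Bhmt2 share a divergent promoter, the first encoding the FAD enzyme that demethylates dimethylglycine and the second a methyltransferase that remakes methionine from homocysteine. The region there (chr13:93674188-93674529) went from 49.7, 40.8 and 38.9 to 67.2, 60.8 and 67.3 scaled tags (0.60, SE 0.12, edgeR adjusted p 0.0031). Apoa5 encodes an apolipoprotein that lowers plasma triglyceride, and its promoter region (chr9:46268404-46268725) went from 37.6, 42.8 and 30.2 to 65.4, 57.6 and 52.6 (0.67, SE 0.13, edgeR adjusted p 0.00208). Neither overlapped between the groups, and both were picked after their values were seen. At the promoter of Khdrbs2, an RNA-binding protein gene, the signal fell from 21.0, 16.9 and 30.2 to 8.06, 9.59 and 13.7 (chr1:32172508-32172824; -1.12, SE 0.25, edgeR adjusted p 0.00918), and it fell likewise with Ad_Cre (-1.16, edgeR adjusted p 0.00715). The promoter of Insig1, which holds back sterol synthesis, fell from 104, 102 and 93.9 to 78.0, 89.5 and 73.6 (chr5:28071096-28071375; -0.31, SE 0.08, edgeR adjusted p 0.0346). Of these promoters, Gsta2 and Dmgdh were called in all 6 fits without 1 library. The Apoa5 call was lost without B2_minus replicate 1 (edgeR adjusted p 0.0563), the Pir call in 2 fits, the Khdrbs2 call in 2 and the Insig1 call in 5, with highest edgeR adjusted p of 0.115, 0.154 and 0.167 without control replicate 2, control replicate 3 and B2_minus replicate 3.

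The 250 bases before the annotated start of these 6 genes, on the GRCm38.p6 assembly (mm10) as given by RefSeq, are shown because the regions called there overlap them. They read 5′ to 3′ on the gene's strand, and capitals mark a motif found on either strand.
Gsta2 (chr9:78347146-78347395, minus strand): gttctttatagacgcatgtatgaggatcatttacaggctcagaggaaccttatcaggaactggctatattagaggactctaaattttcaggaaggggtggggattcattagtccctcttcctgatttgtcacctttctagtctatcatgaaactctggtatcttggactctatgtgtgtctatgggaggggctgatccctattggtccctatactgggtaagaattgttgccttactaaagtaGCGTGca
Pir (chrX:164269181-164269430, plus strand): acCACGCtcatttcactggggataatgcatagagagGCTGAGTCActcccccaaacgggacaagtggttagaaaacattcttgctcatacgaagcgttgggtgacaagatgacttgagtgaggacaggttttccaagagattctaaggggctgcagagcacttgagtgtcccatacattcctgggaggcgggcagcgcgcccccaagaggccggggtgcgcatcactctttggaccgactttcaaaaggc
Dmgdh (chr13:93674186-93674435, plus strand): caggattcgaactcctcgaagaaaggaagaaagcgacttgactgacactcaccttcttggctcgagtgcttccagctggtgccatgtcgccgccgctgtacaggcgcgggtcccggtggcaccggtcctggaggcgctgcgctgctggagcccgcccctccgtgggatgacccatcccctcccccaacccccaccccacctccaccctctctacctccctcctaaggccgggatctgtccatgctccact
Apoa5 (chr9:46268383-46268632, plus strand): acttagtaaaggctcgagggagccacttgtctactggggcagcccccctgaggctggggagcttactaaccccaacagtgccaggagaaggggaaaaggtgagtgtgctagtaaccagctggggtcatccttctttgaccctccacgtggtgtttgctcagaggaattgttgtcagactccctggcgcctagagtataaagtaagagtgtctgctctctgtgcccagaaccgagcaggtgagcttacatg
Khdrbs2 (chr1:32172472-32172721, plus strand): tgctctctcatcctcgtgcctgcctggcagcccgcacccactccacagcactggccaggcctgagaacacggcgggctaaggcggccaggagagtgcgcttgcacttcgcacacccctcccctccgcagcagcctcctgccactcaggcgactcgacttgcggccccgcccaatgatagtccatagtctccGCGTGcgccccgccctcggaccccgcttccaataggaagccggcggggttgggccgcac
Insig1 (chr5:28071162-28071411, plus strand): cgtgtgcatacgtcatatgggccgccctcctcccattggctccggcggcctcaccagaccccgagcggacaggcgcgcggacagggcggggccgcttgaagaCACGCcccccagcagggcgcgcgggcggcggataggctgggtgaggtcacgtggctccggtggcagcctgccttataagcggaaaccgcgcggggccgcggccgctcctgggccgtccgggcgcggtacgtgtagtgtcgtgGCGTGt

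The letters searched on both strands were GCGTG for AhR, TGANTCA for AP-1, TGACNNNGC for NRF2, CAAAGTCCA for HNF4, and TTGCGCAA or TTGCACAA for C/EBP. In Gsta2 the AhR core starts 7 bases before the gene start, in Khdrbs2 59, and in Insig1 6 and, on the other strand, 148 bases before it. In Pir the AP-1 and NRF2 letters overlap at 212 and 214 bases before the start, and an AhR core lies at 248 on the other strand. These Pir letters and the Insig1 core at 6 bases lie outside the regions called at those promoters. The other marked cores lie inside the called regions. The AhR core is common: it was in 33.8% of all 21263 promoters of protein-coding genes, in 47.8% of the 11781 that overlapped a tested region, in 8 of 22 that overlapped a region called higher (36.4%) and in 16 of 30 that overlapped one called lower (53.3%). The AP-1 letters were in 6.13% of all promoters, 1 of the 22 and 2 of the 30, and the NRF2 letters in 10.4% of all, 2 of the 22 and 6 of the 30. These matches describe letters in this window and no more.

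Calls were denser away from promoters. Of tested regions, 0.603% were called at gene ends (within 1 kb of either end and outside the promoter window), 1.02% inside genes, 1.22% within 50 kb of a protein-coding gene and 1.89% farther away. Regions farther than 50 kb made up 9.95% of those tested, 12.3% of those higher and 22.0% of those lower. Signal strength goes with place, since the median control value was 59.2 scaled tags at promoters and 20.7 farther than 50 kb, and its part in these shares was not tested. By mean strength, 0.308% were called under 12 scaled tags, 1.05% at 12 to 20, 1.38% at 20 to 40, 1.02% at 40 to 80 and 0.519% at 80 or more.

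**Figure D2:**
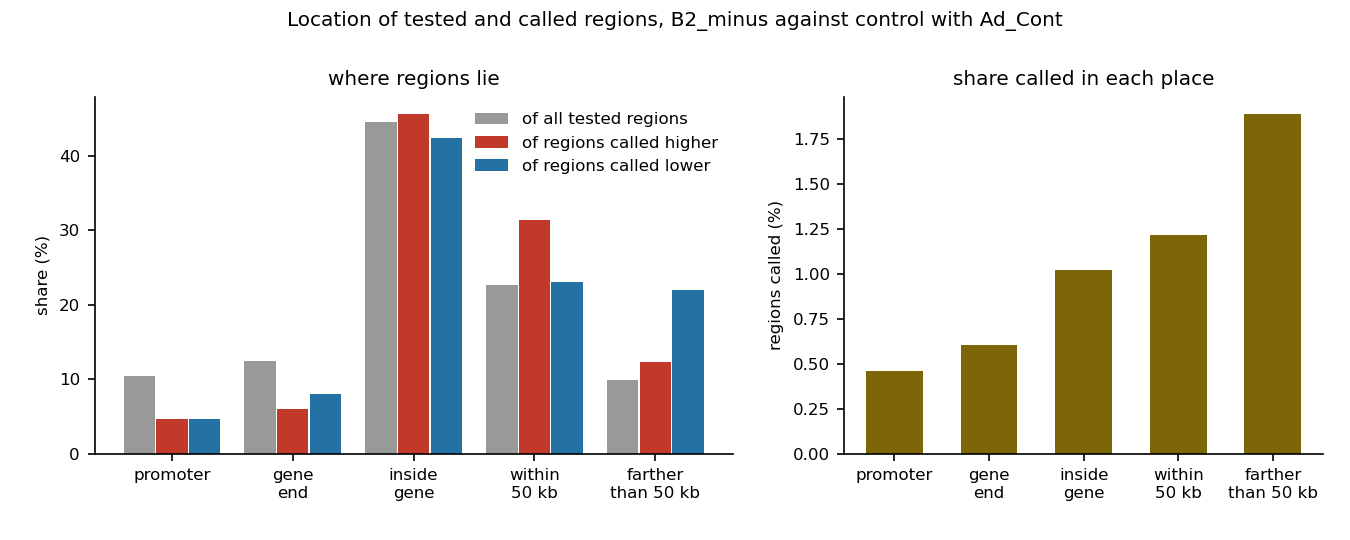
Left, the share (%) of all tested regions and of regions called higher or lower in B2_minus that lies in each kind of place. Right, the share (%) of tested regions called in each place, from 0.46% at promoters to 1.89% farther than 50 kb from a protein-coding gene. Bars start at 0 and carry no error bars.

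As counted here, the share of regions called at the genes of flavin metabolism lay near that of all tested regions (1.04%). None of the 19 regions near the 5 genes of riboflavin transport and flavin cofactor synthesis was called, Slc52a2, Slc52a3, Rfk, Flad1 and Slc25a32 (median log2 fold change 0.03). Of 129 regions near 27 flavin-dependent mitochondrial enzymes, 2 were higher and 0 lower (1.55%; median 0.02, against 0.01 for all tested regions). One lay inside Dmgdh and held 9.95, 7.96 and 7.56 scaled tags in the controls and 19.7, 22.4 and 21.0 with B2_minus (chr13:93700691-93701124; log2 fold change 1.30, SE 0.26, edgeR adjusted p 0.00217). The groups did not overlap, but control replicate 3 sat at the lowest listed count and the other controls just above it. The other lay inside Chdh, which oxidizes choline to the precursor of betaine and so feeds the same pathway, with 26.5, 29.9 and 25.9 against 38.5, 39.4 and 46.3 (chr14:30017863-30018751; 0.58, SE 0.16, edgeR adjusted p 0.0382). The region called higher at the promoter shared by Dmgdh and Bhmt2 is not in this count, because each region took the name of 1 gene. Of 92 regions near 12 one-carbon genes 1 was higher, inside Pemt, which methylates phosphatidylethanolamine to phosphatidylcholine: 19.9, 13.9 and 15.1 became 34.0, 30.9 and 23.1 (chr11:60001593-60002247; 0.86, SE 0.21, edgeR adjusted p 0.0205). The Dmgdh region was called in all 6 fits without 1 library, the Pemt region in 2 and the Chdh region in 0, with highest edgeR adjusted p of 0.175 without B2_minus replicate 1 and 0.199 without B2_minus replicate 3.

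At Ahr itself no region was called. Its 9 regions had log2 fold changes from -0.20 to 0.48, and the strongest, at the higher-numbered end of the gene (chr12:35534948-35535212), held 71.8, 70.7 and 76.7 in the controls and 78.0, 78.9 and 77.8 with B2_minus. The region nearest the threshold lay outside the gene (chr12:35459787-35460099; 32.0, 28.9 and 32.4 against 45.7, 42.6 and 41.0, edgeR adjusted p 0.0932), where the groups did not overlap. Of 48 regions near AhR and its classic targets 1 was higher (2.08%, against 1.04% of all tested regions). It lay inside Arnt, the partner with which AhR binds DNA: 44.2, 51.8 and 47.5 became 69.0, 62.9 and 70.5 (chr3:95439681-95439997; 0.49, SE 0.11, edgeR adjusted p 0.00978). No region near Cyp1a1, Cyp1a2, Cyp1b1, Ahrr, Tiparp or Nqo1 was called. Of 135 regions of xenobiotic metabolism 1 was higher (0.741%), the Gsta2 promoter, with a median of 0.07 over the list. Among 154 regions of NRF2 and its targets 2 were higher (1.30%). They were the Pir promoter and a region near Gclc, the catalytic subunit of glutathione synthesis (8.84, 8.96 and 8.64 against 21.5, 12.8 and 18.9; chr9:77749153-77750195; 1.02, edgeR adjusted p 0.018). The Arnt call was lost in 3 of 6 fits without 1 library and the Gclc call in 5, with highest edgeR adjusted p of 0.0657 without control replicate 1 and 0.152 without B2_minus replicate 1. The Gclc controls sat just above the lowest listed count. That region was called in 5 of the 16 alternatives in which it was tested, with log2 fold changes from 0.30 to 1.44.

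Genes of bile acid handling gained signal at 3 regions and lost it at 1, of 172 near 20 genes (2.33%, against 1.04% of all tested regions), with a median of 0.06. Cyp7a1, which starts bile acid synthesis from cholesterol, had 26.5, 14.9 and 11.9 scaled tags in the controls and 27.8, 35.2 and 37.9 with B2_minus inside the gene (chr4:6270558-6270861; log2 fold change 0.91, SE 0.21, edgeR adjusted p 0.00946). Control replicate 1 nearly reached the lowest B2_minus library, while the other controls were far below. Near Slc10a1, the bile acid importer, 37.6, 27.9 and 33.5 became 56.5, 43.7 and 49.4 (chr12:80976025-80976279; 0.61, SE 0.14, edgeR adjusted p 0.0106), and at the promoter of Cyp27a1, the sterol 27-hydroxylase, 48.6, 52.8 and 46.4 became 67.2, 68.2 and 65.2 (chr1:74713327-74713614; 0.44, SE 0.11, edgeR adjusted p 0.027). The loss lay within 1 kb of the start or end of Fgfr4, the receptor through which intestinal Fgf15 restrains Cyp7a1. There 66.3, 57.7 and 61.5 became 35.8, 43.7 and 55.8 (chr13:55152986-55153295; -0.47, SE 0.12, edgeR adjusted p 0.0251). At Fgfr4 the groups lay close, with B2_minus replicate 3 just under the lowest control. These calls were lost in 3 (Cyp7a1), 2 (Slc10a1), 5 (Cyp27a1) and 4 (Fgfr4) of 6 fits without 1 library, with highest edgeR adjusted p of 0.128 without control replicate 3, 0.145 without B2_minus replicate 1, 0.133 without control replicate 3 and 0.309 without B2_minus replicate 1.

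Fatty acid and triglyceride synthesis had 4 regions higher and 0 lower of 318 near 22 genes (1.26%, against 1.04% of all tested regions), with a median of 0.05. They lay inside Me1, malic enzyme, which supplies NADPH (13.3, 6.97 and 14.0 against 24.2, 23.4 and 21.0; chr9:86693943-86694291; 1.02), and near Gpam, which starts glycerolipid synthesis (18.8, 19.9 and 17.3 against 30.5, 38.4 and 28.4; chr19:55134488-55134874; 0.78). The others lay inside Dgat2, which adds the last acyl chain of triglyceride (19.9, 18.9 and 19.4 against 33.1, 30.9 and 32.6; chr7:99156256-99156557; 0.73), and near Scd1, the stearoyl-CoA desaturase (46.2 ± 3.84 against 61.5 ± 1.41; chr19:44416221-44416503; 0.41). At none of the 4 did the groups overlap, as at nearly all called regions. The edgeR adjusted p ran from 0.0164 for Me1 to 0.0459 for Scd1. At Me1 control replicate 2 sat at the lowest listed count. The Dgat2 call was lost in all 6 fits without 1 library (edgeR adjusted p up to 0.134, without B2_minus replicate 1), the Gpam call in 5 (up to 0.147, without B2_minus replicate 2) the Scd1 call in all 6 as well (up to 0.212, without control replicate 3), and the Me1 call in 2 (up to 0.189, without control replicate 2). In cholesterol synthesis and uptake only the Insig1 promoter was called of 170 regions, and in fatty acid oxidation and ketogenesis none of 163, with medians of 0.05 and 0.00.

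Glucose genes had 3 regions higher, all in Pfkp, the platelet form of phosphofructokinase, and 1 lower, inside Hk2, hexokinase 2, of 203 near 18 genes (1.97%, against 1.04% of all tested regions). The Pfkp regions lay 1.13, 1.79 and 12.1 kb into the gene from its start and rose by 0.73, 0.46 and 0.97 on the log2 scale. The first of them held 18.8, 18.9 and 20.5 scaled tags in the controls and 36.7, 30.9 and 28.4 with B2_minus (chr13:6647688-6648169, edgeR adjusted p 0.0346). With sums of peaks in place of the highest peak, however, its value turned to -0.15. At the Pfkp region 12.1 kb into the gene, control replicate 3 sat at the lowest listed count. At Hk2 40.9, 35.8 and 41.0 became 18.8, 28.8 and 25.2 (chr6:82756210-82756570; -0.71, SE 0.17, edgeR adjusted p 0.0187). Of 219 regions of insulin and FoxO signalling 1 was higher (0.457%), near Irs2, the main insulin receptor substrate of the liver: 16.6, 14.9 and 10.8 became 29.6, 21.3 and 26.3 (chr8:10980948-10981203; 0.87, SE 0.23, edgeR adjusted p 0.0295). Of 268 circadian regions 1 was higher (0.373%), inside Arntl, which encodes the clock factor BMAL1: 16.6, 16.9 and 10.8 became 30.5, 26.6 and 29.5 (chr7:113239810-113240092; 0.96, SE 0.22, edgeR adjusted p 0.0111). All 4 named regions had groups that did not overlap. The other Pfkp calls were lost in 5 and 6 of 6 fits without 1 library, with an edgeR adjusted p up to 0.245 without B2_minus replicate 1 and 0.17 without control replicate 3. Leaving out 1 library ended the first Pfkp call in 5 of 6 fits, Hk2 in 3, Irs2 in 4 and Arntl in 2, with highest edgeR adjusted p of 0.233, 0.205 and 0.193 without B2_minus replicate 1 and 0.114 without control replicate 3.

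Inflammation and acute phase genes had 4 regions lower and 0 higher of 223 near 27 genes (1.79%, against 1.04% of all tested regions). Their median log2 fold change was -0.08, and 84 of the 223 values were above 0. Within 1 kb of the start or end of Ccl7, a chemokine that draws monocytes, 29.8, 21.9 and 25.9 scaled tags became 13.4, 9.59 and 8.42 (chr11:82045483-82045795; -1.26, SE 0.24, edgeR adjusted p 0.00174). Equally close to the start or end of Socs3, an inhibitor of cytokine signalling, 26.5, 29.9 and 33.5 became 17.9, 16.0 and 15.8 (chr11:117966474-117966863; -0.84, SE 0.21, edgeR adjusted p 0.0192). Both lost signal in every B2_minus library relative to every control. Near Tnfaip3, which restrains NF-kB, 39.8, 41.8 and 44.3 became 26.0, 21.3 and 29.5 (chr10:19046048-19046352; -0.71, SE 0.16, edgeR adjusted p 0.0106), and near Irf1, a transcription factor of interferon responses, 23.2, 23.9 and 23.8 became 12.5, 11.7 and 12.6 (chr11:53755037-53755396; -0.93, edgeR adjusted p 0.0223). With library size from listed tags the list's median was -0.03 and that of all tested regions 0.06. Of 44 interferon and antiviral regions none was called (median 0.02). The Ccl7 region was called in all 6 fits without 1 library, the Tnfaip3 call was lost in 3, the Socs3 call in 5 and the Irf1 call in 6, with highest edgeR adjusted p of 0.0771 without B2_minus replicate 2, 0.118 without control replicate 3 and 0.0944 without B2_minus replicate 1.

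In a list of YAP targets and dedifferentiation 3 regions were lower and 0 higher, of 203 regions near 15 genes (1.48%, against 1.04% of all tested regions). Amotl2 and Amotl1 encode angiomotin-like proteins that hold YAP outside the nucleus, and Sox4 a transcription factor of progenitor cells. Near Amotl2 22.1, 22.9 and 19.4 became 8.06, 12.8 and 10.5 (chr9:102777465-102777799; -1.05, SE 0.26, edgeR adjusted p 0.0185). Inside Amotl1 22.1, 21.9 and 24.8 became 13.4, 11.7 and 11.6 (chr9:14559514-14559805; -0.89, SE 0.24, edgeR adjusted p 0.0394). Near Sox4 42.0, 48.8 and 54.0 became 30.5, 29.9 and 28.4 (chr13:28917910-28918216; -0.70, SE 0.15, edgeR adjusted p 0.0058). The groups did not overlap at these 3. The list's median was -0.04, against 0.01 for all tested regions, and with library size from listed tags these medians were 0.02 and 0.06. A single loss, 1 of 152 immediate early regions (0.658%), lay near Dusp5, an immediate early phosphatase (22.9 ± 6.32 to 12.3 ± 3.79; -0.89). Another, 1 of 111 regions of the integrated stress response (0.901%), lay within 1 kb of the start or end of Gdf15, a hormone of cell stress (51.1 ± 3.29 to 36.3 ± 0.491; -0.49). Calls at Amotl1 and Gdf15 were lost in all 6 fits without 1 library, at Amotl2 and Dusp5 in 4 each and at Sox4 in 1, with edgeR adjusted p up to 0.15 (control replicate 3), 0.164 (control replicate 3), 0.156 (B2_minus replicate 1), 0.246 (control replicate 1) and 0.0642 (control replicate 3) without the library in parentheses.

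**Figure D3:**
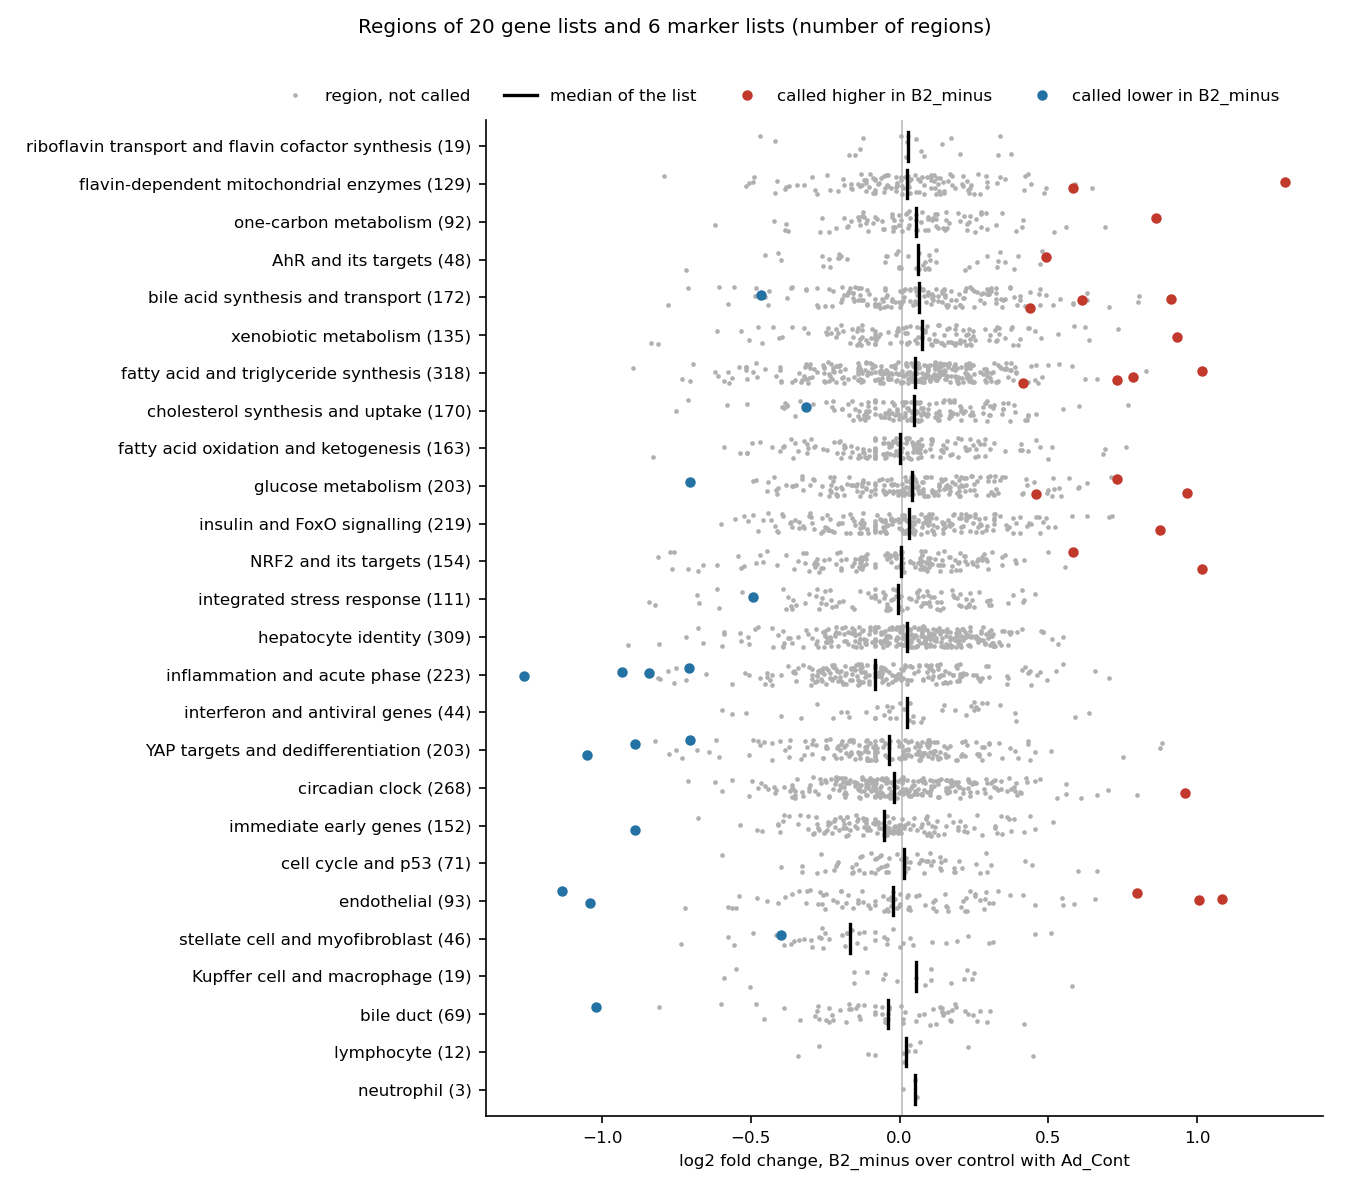
Log2 fold change of B2_minus over control with Ad_Cont (horizontal axis) for every tested region within 50 kb of a gene of 20 gene lists and 6 marker lists, spread at random within a row. Black bars are list medians and the grey line the median of all tested regions (0.01). Red and blue points are regions called higher and lower. The stellate cell list has the lowest median (-0.17).

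Markers of other liver cells were read the same way, and their part in the results was not tested. Of 93 regions near 15 endothelial markers, 3 were higher and 2 lower (5.38%, against 1.04% of all tested regions), with a median of -0.02. Stab2 alone held 3 of these calls, and whether its 2 neighbouring gains are 1 site was not tested. The summed signal of the 93 was 2209 to 2264 scaled tags in the controls and 2251 to 2310 with B2_minus. The gains were in Stab2 (2 regions) and near Kdr, a VEGF receptor (11.1, 9.95 and 8.64 against 22.4, 21.3 and 15.8; 1.01), and the losses in Stab2 and in Flt1, another VEGF receptor (18.8, 16.9 and 13.0 against 8.06, 7.46 and 6.31; chr5:147719812-147720398; -1.13). The 46 regions near 14 stellate cell and myofibroblast markers had a median of -0.17, with 12 values above 0. With library size from listed tags, where all tested regions had a median of 0.06, it was -0.11 for these 46. Their summed signal was 1140 to 1242 in the controls and 1042 to 1096 with B2_minus, without overlap, but 1 region was called, near Col1a1, the collagen gene (78.5, 72.7 and 81.0 against 54.7, 64.0 and 57.9; chr11:94928864-94929129; -0.40, edgeR adjusted p 0.0242). Col1a2, Dcn and Lox had no tested region within 10 kb. Bile duct markers had 1 lower region of 69, inside Krt7, a keratin of bile ducts (19.9, 20.9 and 16.2 against 9.86, 6.4 and 11.6; chr15:101424722-101425239; -1.02), and summed to 2275 to 2310 in the controls and 2252 to 2284 with B2_minus. The Kupffer, lymphocyte and neutrophil lists had 0 of 19, 0 of 12 and 0 of 3 regions called. Calls were lost at Kdr in 5, Flt1 in 2, Col1a1 in 4 and Krt7 in 4 of 6 fits without 1 library, with edgeR adjusted p up to 0.136 (B2_minus replicate 1), 0.0664 (control replicate 1), 0.163 (B2_minus replicate 1) and 0.147 (B2_minus replicate 2). At Flt1 and Krt7 the lowest B2_minus values sat at the lowest listed count.

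Several genes held runs of changed regions. Another called region of the same direction lay within 10 kb of 78 of the 628 lower regions (12.4%) and of 23 of the 430 higher ones (5.35%). What the spacing of the tested regions alone would give was not tested. The 78 take in 8 regions of Sfi1 and 5 of a run on chromosome 17, both described below, where sequence is repeated in the genome. Tinagl1, which encodes a secreted matrix protein, had 4 lower regions of 7 over 13.9 kb (median -0.57). One of them, chr4:130177090-130177496, held 58.6, 50.8 and 58.3 scaled tags in the controls and 39.4, 32.0 and 37.9 with B2_minus (-0.60, SE 0.13, edgeR adjusted p 0.00677). The groups did not overlap there, yet the 2 regions at its start held 55.9 and 49.7 scaled tags in the controls and 51.1 and 42.5 with B2_minus and were not called. Htra1, the gene of a secreted protease, had 3 lower regions of 5 over 17.3 kb toward its end (-0.70 to -0.83), beside a region of 81.7 scaled tags in the controls and 82.7 with B2_minus that was not called. These stretches end at their own calls, and over all regions the median was -0.31 for the 7 of Htra1 and -0.57 for the 9 of Tinagl1. Of the fits without 1 library, 1 to 5 lost each call of the 4 at Tinagl1 and 2 to 4 each of the 3 at Htra1. The highest edgeR adjusted p were 0.198 without B2_minus replicate 1 and 0.201 without B2_minus replicate 3.

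At Stab2 the changes were local. Its 18 regions spanned log2 fold changes from -1.04 to 1.08 with a median of 0.03. The 2 gains lay next to each other, 135.22 and 135.67 kb from the gene's start, and the weaker of them held 16.6, 17.9 and 21.6 scaled tags in the controls and 35.8, 29.9 and 31.6 with B2_minus (chr10:86872614-86873016; 0.80, edgeR adjusted p 0.019). The loss lay 158.3 kb from the start and went from 21.0, 13.9 and 15.1 to 8.96, 6.4 and 8.42 (chr10:86849574-86849906; -1.04, edgeR adjusted p 0.0259). Each group of 3 stood apart from the other in both, and at the loss the lowest B2_minus value sat at the lowest listed count. The weaker gain was lost in 3 and the loss in 5 of 6 fits without 1 library, with highest edgeR adjusted p of 0.14 without B2_minus replicate 1 and 0.175 without control replicate 1.

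**Figure D4:**
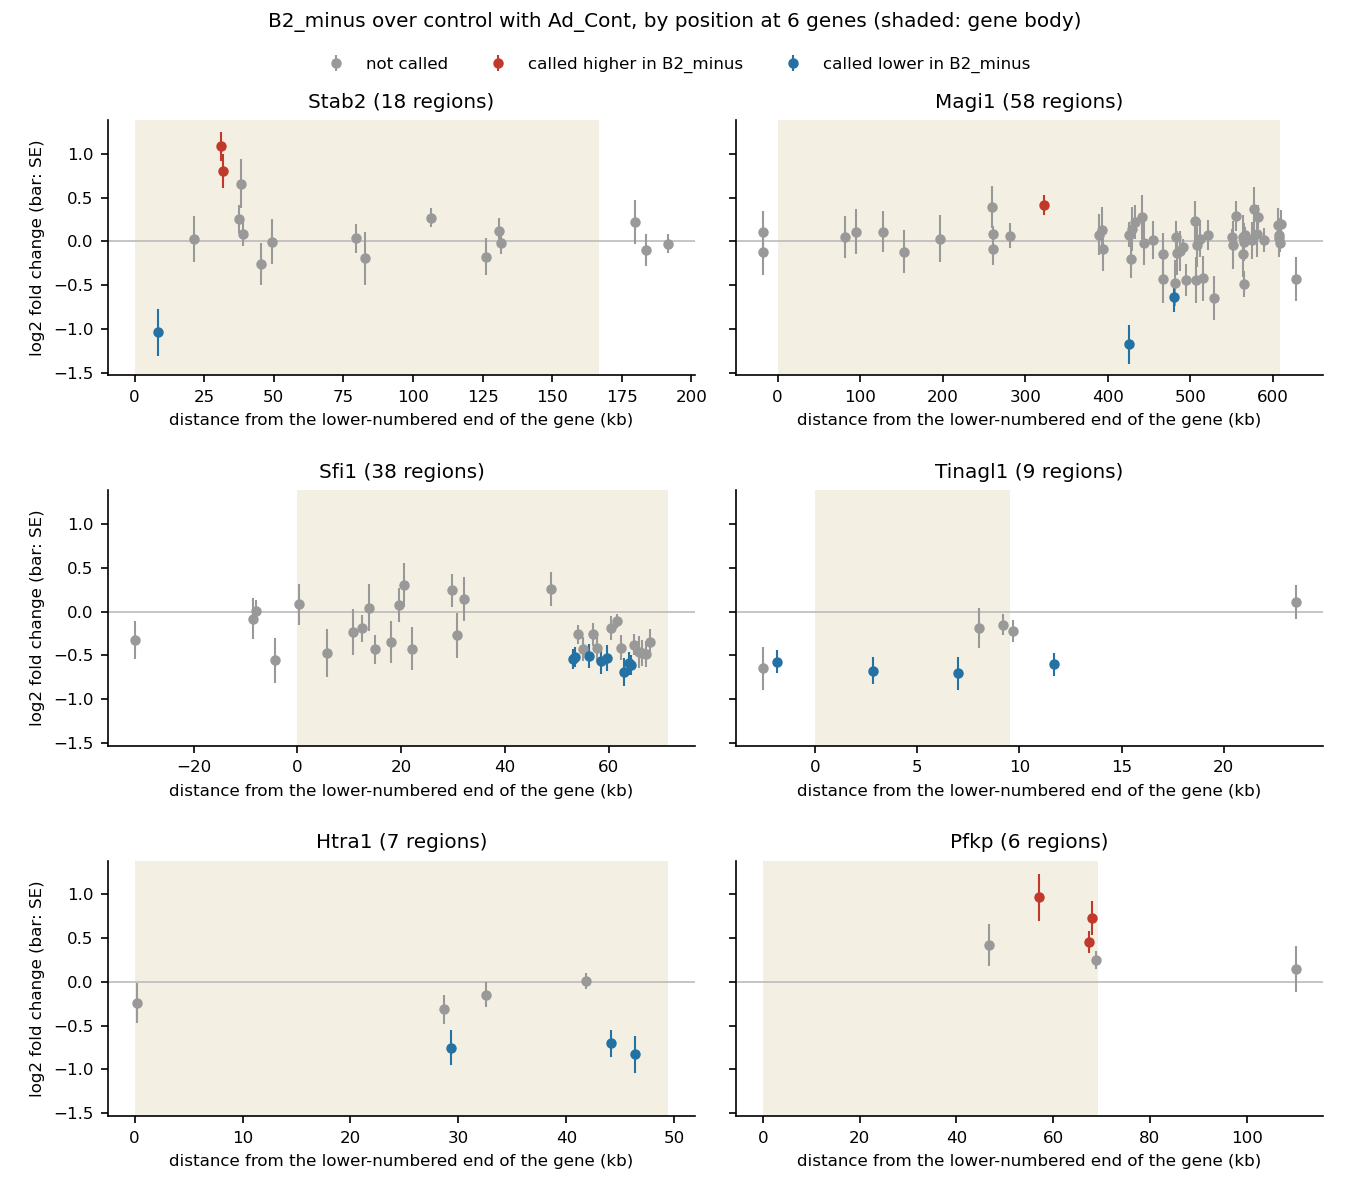
Log2 fold change of B2_minus over control with Ad_Cont (vertical axis, with SE) for every tested region assigned to 6 genes, against distance (kb) from the lower-numbered end of the gene, whose body is shaded. Red and blue points are regions called higher and lower. Stab2 has 2 gains side by side and 1 loss, Magi1 has 1 gain and 2 losses among 58 regions, Sfi1, Tinagl1 and Htra1 have runs of losses, and the 3 gains of Pfkp lie inside the gene.

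The run with the most called regions lay in Sfi1, the gene of a centrosome protein, where 8 of 15 regions over 11.8 kb were lower and all 15 had values under 0 (median -0.50). The ends of that stretch were set by its own calls, and over the whole gene 8 of 38 regions were lower and 30 had values under 0 (median -0.37). The strongest of the 8 (chr11:3195978-3196386) held 65.2, 58.7 and 81.0 scaled tags in the controls and 43.9, 45.8 and 44.2 with B2_minus (-0.61, SE 0.11, edgeR adjusted p 0.00134). No library of one group reached the other. Sfi1 has near-identical copies elsewhere in the mouse genome, so tags there may be split or misplaced and the values are uncertain. One of the 8 turned to 0.0073 with sums of peaks, and 1 to 5 of the fits without 1 library lost each call, with an edgeR adjusted p up to 0.373 without B2_minus replicate 1. A run on chromosome 17 (chr17:39843282-39846757) overlaps Rn18s-rs5, a gene of ribosomal RNA sequence, which is repeated in the genome, and 5 of its 5 regions were lower by 0.15 to 0.20 on the log2 scale, at group means of 228 to 351 scaled tags. Each of these 5 calls was lost in 2 or 3 of the 6 fits without 1 library, with an edgeR adjusted p up to 0.485 without B2_minus replicate 1. The highest count in each Ad_Cont library was 321 to 343 tags, and whether these regions meet a ceiling was not tested.

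Single regions with large changes included losses near Ctsc, the lysosomal protease that activates granule proteases (36.5, 32.9 and 30.2 against 16.1, 16.0 and 15.8; chr7:88243098-88243371; -1.05), and near Fbln2, a matrix glycoprotein (33.1, 25.9 and 32.4 against 16.1, 14.9 and 12.6; chr6:91210768-91211126; -1.04). Near Ezr, which ties membranes to actin, 26.5, 28.9 and 24.8 became 12.5, 10.7 and 13.7 (chr17:6814670-6814975; -1.11). These 3 were called in all 6 fits without 1 library, with edgeR adjusted p of 0.00217, 0.00398 and 0.00405 in the whole set. Gains at gene ends included Stip1, the co-chaperone that links Hsp70 to Hsp90 (18.8, 7.96 and 7.56 against 22.4, 22.4 and 31.6; chr19:7038753-7039669; 1.16), and Mical3, whose product oxidizes actin with FAD (17.7, 17.9 and 15.1 against 36.7, 26.6 and 33.7; chr6:121173585-121173889; 0.94, edgeR adjusted p 0.00595). At Stip1 control replicate 1 stood far above the other controls, and control replicate 3 sat at the lowest listed count. The Stip1 call was lost in 3 of 6 fits and the Mical3 call without B2_minus replicate 1 (edgeR adjusted p 0.0812), and Stip1 reached 0.08 without control replicate 3.

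Beside the Ad_Cre libraries, which share no library with these, the changes had the same sign at 391 of the 430 higher and 608 of the 628 lower regions, against 63238 of all 101575. Median log2 fold changes with Ad_Cre were 0.27 and -0.48 at the 2 sets, smaller than the 0.68 and -0.87 by which the sets had been chosen. Of the regions called here, 46 higher and 152 lower ones were called with Ad_Cre too, where 1.13% of all regions were called. The test of the difference between the arms called 0 regions (0.0%), with 5221 at an unadjusted p under 0.05 and a lowest edgeR adjusted p of 0.578. Its unadjusted p was under 0.05 at 164 of the higher and 107 of the lower regions. No region was therefore shown to respond differently with Ad_Cont and with Ad_Cre.

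Regions listed in all 3 libraries of one group and in none of the other numbered 2149 for B2_minus and 1647 for control, of 418593 with a peak in any Ad_Cont library. They were weak, with a median mean count of 8.0 and 8.33 tags against a lowest listed count of 6 to 7. A peak in all 3 Ad_Cre libraries of the same riboflavin state was found for 528 and 387 of them. For 352 and 166 there was a peak in all 3 Ad_Cre libraries of the other state. Only 45 and 76 had a peak in all 3 of the same state and in none of the other. Of the 2149 and 1647 regions, 57 and 64 had a mean count of at least 20 tags. Of these, 96.5% and 98.4% had a peak of the other group within 300 bp. Among them were the strongest, beside Rhebl1, Vdac2 and Rhoc for B2_minus and beside Pcyt1a and Fbxo33 for control. A shift in where a peak was placed and a change in openness cannot be told apart there. The strongest with no other-group peak within 1000 bp were chr17:66007910-66008547, with 16, 20 and 13 tags in the B2_minus libraries, and chr13:56682372-56682712, with 14, 15 and 20 tags in the controls. With Ad_Cre the chromosome 17 region was listed in both states, with 8, 8 and 12 tags in the controls and 14, 13 and 10 with B2_minus. The chromosome 13 region held 17, 22 and 20 tags in the Ad_Cre controls. With B2_minus and Ad_Cre it held 6 tags in replicate 1 and was not listed in replicates 2 and 3.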

How the data were processed

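Each deposited file listed the ATAC-seq peaks of 1 library, with a whole-number tag count per peak. Per the submitters' processing notes, the authors used Bowtie2 and HOMER and the builds hg38 and mm10, with no versions or roles. Alignment settings, read shifting, duplicate handling and thresholds are not stated in any source used here, and that the counts are unscaled was read from the values. Yet the variance over mean of replicates (0.44 to 0.72) lay below Poisson counting, and the highest count was 315 to 350 in every hepatocyte library. Whether the counts had been scaled down or capped was not tested, and the calls rest on that low spread. Total depth is unknown, since tags in listed peaks are not the depth of a library.

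The 12 hepatocyte libraries were merged, compared and tested together in 4 groups with edgeR 4.0.16 in R 4.3.3 (TMM scaling, quasi-likelihood fit, 8 residual degrees of freedom, Benjamini-Hochberg adjusted p under 0.05), and alternatives used limma 3.58.1 and DESeq2 1.42.0. The edgeR fit was tested on simulated data with Poisson noise, which does not cover the variance below Poisson seen here. A region took the name of the closest protein-coding gene, up to 50 kb away, in RefSeq's GRCm38.p6 tables, and promoters reach from 250 bases before the start to 50 after it. Replicate numbers did not pair the samples. No genome was used, so no peak sequence is shown.

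Named regions were those called with the 8 largest changes per direction (group means of at least 12 scaled tags, no overlap), the 5 largest per direction within 1 kb of a gene end, the 6 genes with most calls, up to 3 genes per list, the 3 lowest adjusted p per direction, the 3 strongest regions listed in 1 group only and all Ahr regions. The Dmgdh, Apoa5 and Cyp27a1 promoters, the Scd1 and Irf1 regions, the run on chromosome 17 and the regions said to be chosen after their values were seen stand outside that rule. One result under the rule is not reported here. Members, lists and tests were chosen with earlier results of these data known.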

Additional observations from a re-analysis of the deposited data

How the results depend on the processing

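The count of regions called, 430 higher and 628 lower, stayed within 1.5 times under limma (440 and 637), the fit of the 6 Ad_Cont libraries alone (374 and 652), merging over those 6 (432 and 672), merging at 100 bp of overlap (399 and 678), peaks of at least 10 tags (329 and 583) and a mean of at least 20 tags (321 and 558). It moved further under the others: 7 and 10 with edgeR bounded at Poisson variance, 0 and 0 with DESeq2, 687 and 325 with library size from listed tags, 15 and 12 where 3 libraries with a peak were enough, 14 and 16 with the sum of peaks, and 70 and 146 over isolated peaks only, an alternative chosen after seeing the data in which 16547 regions were tested. For the other settings the cause was not tested. Leaving out 1 library gave 124 to 234 higher and 140 to 351 lower, from fewer samples. Regions listed in B2_minus libraries only fell from 2149 to 1034 with peaks of at least 10 tags, and those listed in controls only from 1647 to 1115. Leaving out 1 library gave 3671 to 5606 and 2914 to 6963. Of the 79 named regions called, 79 were called by limma, 66 with library size from listed tags, 11 with the Poisson bound, 8 with the sum of peaks and 0 by DESeq2. With the sum of peaks the Pfkp region at chr13:6647688-6648169 reversed to -0.15 and the Sfi1 region at chr11:3187736-3188488 to 0.0073. A fit with the replicate number as a block called 422 higher and 629 lower, 1021 of 1051 shared with the fit without it. The correlations of the deviations of same-numbered samples were -0.0066, -0.0149 and -0.0029, so the numbers do not pair them. Depth limits weak sites most, since a site under 6 to 7 tags is not listed.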
